A study of Chlamydomonas reinhardtii with 6 samples.

Results

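A set of 41 genes of the green alga Chlamydomonas reinhardtii stood at least 4-fold higher in every library of a single-cell isolate than in any library of a cell-group isolate. The genes were chosen by their CPM, a gene's count divided by all counts of its library and multiplied by 1000000. A gene entered when its lowest CPM over the 3 single-cell libraries was 5 or more and also at least 4 times the highest CPM over the 3 cell-group libraries plus 0.5. Of the 17741 genes in the count table, 9966 had 5 CPM or more in every single-cell library, and 43 of these (0.431%) met the rule. A pair of them was left out by name, which left the 41 genes. Since the contrast of the morphotypes chose the genes, their difference between the morphotypes is described here without a test.

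The libraries came from an isolate that grows in cell groups, taken from a line selected under predation, and an isolate that grows as motile single cells, taken from a line without predation. Both isolates descend from the wild-type strain cc1009, with 1 isolate per morphotype. Each was grown in chemostats for 10 days and then for 5 further days with rotifers added (rotifer), with the nitrogen supply lowered to 40 µM (low nitrogen), or left as before at 80 µM nitrogen (control). RNA of the 3 chemostats of a treatment was pooled before sequencing, so there was 1 library per condition and 6 in all. The only replicates of a morphotype were its 3 treatments. A difference between the morphotypes is a difference between these isolates, in which isolate, line and morphotype cannot be told apart.

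Chlamydomonas is a unicellular alga with a glycoprotein cell wall and a pair of flagella. It divides by multiple fission, in which a mother cell cuts itself into several daughters inside its own wall, and the daughters swim off once that wall is digested. Groups of cells arise where daughters stay attached or enclosed after division. Rotifers are small filter-feeding animals that eat such algae, and nitrogen shortage is known for turning vegetative cells towards gametes. The gene table used here pairs none of the 41 identifiers with a gene name, so the genes are given by identifier and position, and no role is assigned to any of them.

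Library totals ran from 5453218 to 9054895 counts, and the rotifer library was the smallest of each morphotype. The authors describe possible contamination of the rotifer samples, in which relatively more reads found no match in the algal genome. Whether this affected the comparisons of rotifer with control was not tested. A floor of 3 counts corresponded to 0.55, 0.401 and 0.381 CPM in the rotifer, low-nitrogen and control cell groups, and to 0.478, 0.361 and 0.331 CPM in the same treatments of single cells. Floors and intervals cover counting error only. Values of a morphotype are given in the order rotifer, low nitrogen, control. In such libraries, fewer cells that express a gene and less RNA of it per cell cannot be told apart.

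Together the 41 genes held 341, 300 and 253 CPM in cell groups, against 4613, 4078 and 4569 CPM in single cells. That is 0.0341%, 0.03% and 0.0253% of the counts of the cell-group libraries, and 0.461%, 0.408% and 0.457% of those of the single-cell libraries. The median gene of the set had 1.28, 1.47 and 1.52 CPM in cell groups and 30.6, 33.7 and 37.8 CPM in single cells. Single cells exceeded cell groups by a median fold of 16.9 over the 39 genes with a count in cell groups, and of 17.0 with the other two genes at their bound. On the log2 scale of CPM + 0.5, the median difference of cell groups minus single cells was -3.76. All 41 genes were lower in cell groups in each of the 3 treatments, which the rule itself fixes. The same rule with the morphotypes exchanged, with no gene left out by name, was met by 126 genes. The like number for single cells is 43. How many genes had 5 CPM or more in every cell-group library is not given here, so the shares cannot be compared.

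**Figure D1:**
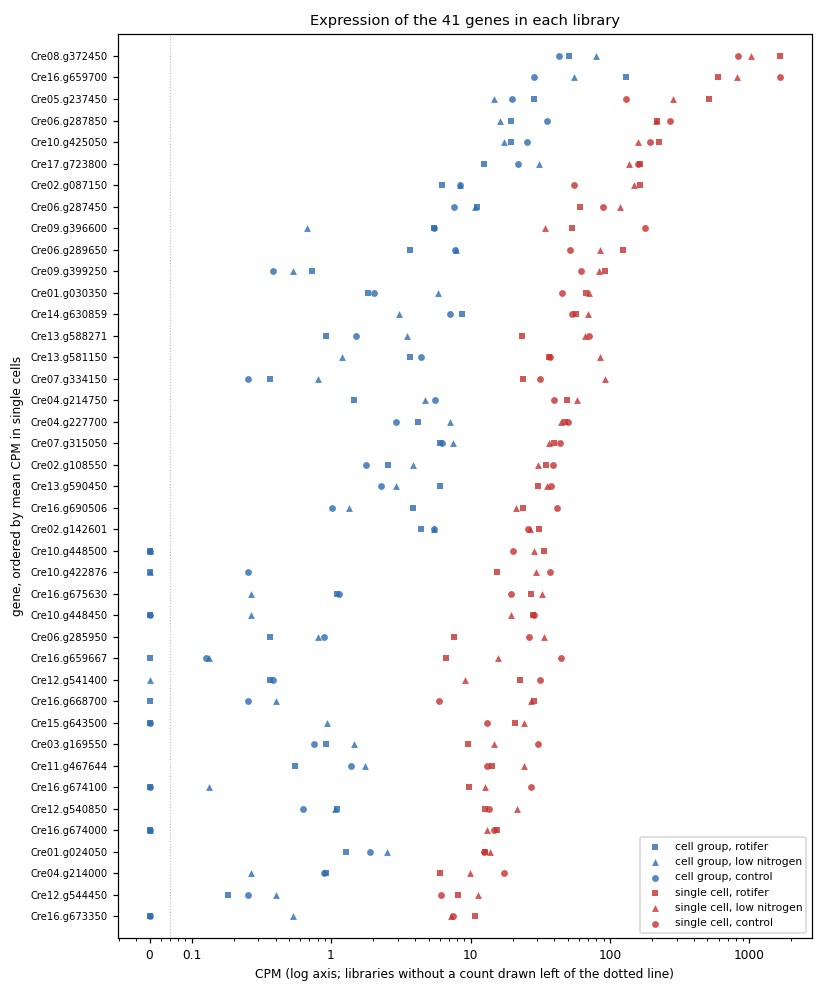
CPM (log axis) of the 41 genes in each of the 6 libraries, with cell groups in blue and single cells in red. Each point is 1 library, squares stand for rotifer, triangles for low nitrogen and circles for control, and libraries without a count are drawn left of the dotted line. The gap between the colours is fixed by the rule. Many genes in the lower part lie under 1 CPM in cell groups, and the top 6 lie above 100 CPM in every single-cell library.

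The set spanned a wide range of levels. Mean CPM in single cells was under 20 for 10 genes, between 20 and 100 for 24 and at 100 or above for 7. In cell groups, 15 genes stayed under 1 CPM in every library, whereas 17 reached 5 CPM and 7 reached 10 CPM in at least 1 library. So the set held both genes that were near silent in the cell-group isolate and genes that were still clearly transcribed there. The ratio that the rule used, the lowest single-cell CPM over the highest cell-group CPM plus 0.5, had a median of 6.18. It lay between 4 and 8 for 29 genes, between 8 and 16 for 6 and at 16 or above for 6.

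The most abundant gene was Cre08.g372450, on chromosome 8 from 2553650 to 2556775 (assembly v5.5, as all positions here). It had 51.0, 79.2 and 43.3 CPM in cell groups, against 1656, 1018 and 833 CPM in single cells. Its mean difference was -4.31 ± 0.67 on the log2 scale (SD over the 3 treatments). Single cells carried most of it under rotifers and least in control, whereas in cell groups the low-nitrogen library was highest.

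Cre16.g659700, on chromosome 16 from 2350939 to 2352908, came next by CPM. It had 131, 55.0 and 28.4 CPM in cell groups, against 590, 817 and 1662 CPM in single cells. The order of the treatments was reversed between the morphotypes. The difference was therefore small under rotifers (-2.16) and large in control (-5.84), with a mean of -3.96 ± 1.84, the largest spread over treatments in the set. Per kilobase of annotated gene span, which includes introns, this gene had the highest mean level in single cells, 519 CPM per kb, ahead of Cre08.g372450 with 374 CPM per kb.

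Cre05.g237450 (chromosome 5, 2817337 to 2820699) had 28.6, 14.8 and 19.7 CPM in cell groups, against 515, 282 and 131 CPM in single cells, and followed per kilobase with a mean of 92.0 CPM per kb. Cre17.g723800 (chromosome 17, 3380042 to 3382373) had 12.5, 31.0 and 21.8 CPM in cell groups, against 163, 137 and 158 CPM in single cells, or 65.4 CPM per kb. These genes differed in evenness. Cre05.g237450 spread 3.92-fold over the single-cell libraries, with the highest value under rotifers, while Cre17.g723800 spread 1.19-fold.

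Cre06.g287850 (chromosome 6, 5840971 to 5846102) had 19.4, 16.3 and 35.3 CPM in cell groups, against 218, 213 and 270 CPM in single cells. Cre10.g425050 (chromosome 10, 1013173 to 1023775) had 19.6, 17.5 and 25.6 CPM in cell groups, against 224, 158 and 194 CPM in single cells. Both were among the 6 genes at 100 CPM or more in every single-cell library, and both were highest in the control library of cell groups. Their mean differences were -3.35 ± 0.38 and -3.17 ± 0.29, so the gap between the morphotypes was similar in each treatment.

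Cre02.g087150 (chromosome 2, 1828818 to 1834832) had 6.23, 8.43 and 8.37 CPM in cell groups, against 163, 148 and 54.8 CPM in single cells. Cre06.g289650 (chromosome 6, 6065043 to 6070975) had 3.67, 7.89 and 7.74 CPM in cell groups, against 123, 85.3 and 51.9 CPM in single cells. Both had the order of Cre05.g237450 in single cells, highest under rotifers and lowest in control, and both were lowest under rotifers in cell groups. Cre06.g287450 (chromosome 6, 5778581 to 5786919) had 11.2, 10.7 and 7.61 CPM in cell groups, against 61.2, 118 and 88.4 CPM in single cells, where low nitrogen was highest.

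Cre09.g396600 (chromosome 9, 1740957 to 1745328) had 5.5, 0.669 and 5.46 CPM in cell groups, against 53.7, 34.1 and 178 CPM in single cells. It was lowest under low nitrogen in both morphotypes. Cre09.g399250 (chromosome 9, 1279822 to 1282435) had 0.734, 0.535 and 0.381 CPM in cell groups, against 92.7, 82.8 and 61.5 CPM in single cells. It had the largest ratio by the rule, 49.9, and the smallest spread of the difference over treatments, -6.24 ± 0.10. Its cell-group values rest on 4, 4 and 3 counts. They are about as large as the added 0.5 CPM, which draws the 3 differences together, so this evenness is partly set by the offset. Its 11 counts over the cell-group libraries set against 1826 in single cells gave a ratio of single cells over cell groups of 146 (95% Poisson interval of the cell-group count 81.7 to 293).

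A further 7 genes had mean single-cell levels between 47.5 and 61.3 CPM. Cre01.g030350 had 1.83, 5.89 and 2.03 CPM in cell groups, against 67.6, 71.2 and 45.3 CPM in single cells. Cre14.g630859 had 8.62, 3.08 and 7.11 CPM in cell groups, against 57.2, 69.1 and 53.2 CPM in single cells. Cre13.g588271 had 0.917, 3.48 and 1.52 CPM in cell groups, against 23.3, 65.8 and 70.7 CPM in single cells. Cre01.g030350 and Cre14.g630859 were both highest under low nitrogen in single cells, whereas in cell groups that library was the highest for Cre01.g030350 and the lowest for Cre14.g630859, and Cre13.g588271 was lowest under rotifers in both morphotypes. Cre04.g214750 had 1.47, 4.68 and 5.58 CPM in cell groups, against 48.8, 58.2 and 39.8 CPM in single cells. Cre04.g227700 had 4.22, 7.09 and 2.92 CPM in cell groups, against 47.5, 44.7 and 50.2 CPM in single cells. Both were even over the single-cell treatments (1.46-fold and 1.12-fold from lowest to highest), and uneven at the few CPM of cell groups.

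Cre13.g581150 had 3.67, 1.20 and 4.44 CPM in cell groups, against 36.3, 84.4 and 36.9 CPM in single cells. Its highest single-cell library and its lowest cell-group library were the same treatment, low nitrogen. The log2 difference was -5.64 there, against -3.14 under rotifers and -2.92 in control. The cell-group value under low nitrogen rests on 9 counts. Cre07.g334150 had 0.367, 0.803 and 0.254 CPM in cell groups, against 23.7, 92.4 and 31.5 CPM in single cells. It was highest under low nitrogen in both morphotypes, although the cell-group values rest on 2, 6 and 2 counts. Cre07.g315050 had 6.05, 7.49 and 6.22 CPM in cell groups, against 39.4, 36.5 and 44.1 CPM in single cells, and Cre02.g108550 had 2.57, 3.88 and 1.78 CPM in cell groups, against 34.7, 30.7 and 38.8 CPM in single cells. This last pair had the treatment with the highest single-cell value, control, at or near the bottom of the cell-group values, with differences between libraries of a few CPM only.

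At the low end, both Cre10.g448500 and Cre16.g674000 had no count in any of the 3 cell-group libraries. Cre10.g448500 (chromosome 10, 3949156 to 3954275) had 33.8, 28.3 and 20.3 CPM in single cells, from 212, 235 and 184 counts. Cre16.g674000 (chromosome 16, 6360146 to 6365750) had 15.5, 13.1 and 14.8 CPM in single cells, from 97, 109 and 134 counts. Against a floor of 3 counts over the 3 cell-group libraries, 0.144 CPM, the pooled single-cell level was at least 185-fold higher for Cre10.g448500 and at least 99.8-fold higher for Cre16.g674000.

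Other genes came close to these, and the 3 that follow were chosen after their values were seen. Cre10.g448450 had 0, 0.268 and 0 CPM in cell groups, against 27.9, 19.5 and 28.3 CPM in single cells. Cre10.g422876 had 0, 0 and 0.254 CPM in cell groups, against 15.6, 29.5 and 37.0 CPM in single cells. Cre16.g674100 had 0, 0.134 and 0 CPM in cell groups, against 9.72, 12.8 and 27.1 CPM in single cells. Each had 1 or 2 counts over all cell-group libraries. The ratios of the pooled levels, single cells over cell groups, were 261 for Cre10.g448450 (72.3 to 2156), 299 for Cre10.g422876 (82.6 to 2465) and 363 for Cre16.g674100 (65.1 to 14330), with intervals too wide to rank them. The span of Cre10.g422876 overlaps that of its neighbour Cre10.g422850 in part (758115 to 758772). The strand setting of the counting is not given in the sources used here, so reads in that shared stretch cannot be told apart. Cre16.g659667 had 0, 0.134 and 0.127 CPM in cell groups, against 6.69, 15.7 and 44.6 CPM in single cells, where it spread 6.67-fold, the widest of the set.

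**Figure D2:**
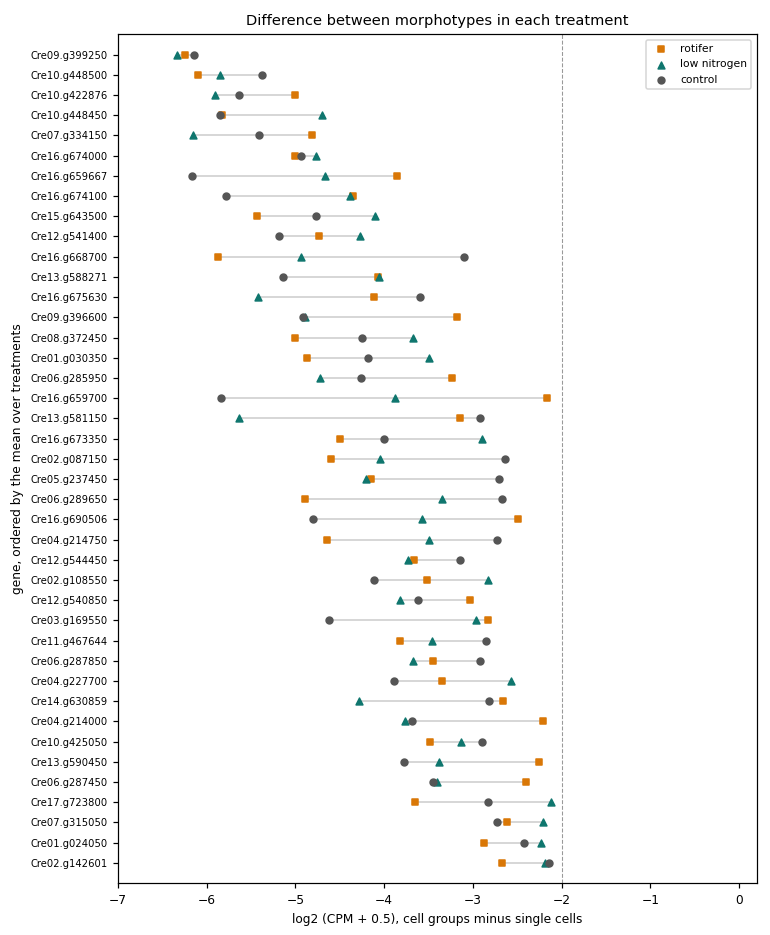
Difference between the morphotypes (log2 of CPM + 0.5, cell groups minus single cells) for each of the 41 genes in rotifer (orange squares), low nitrogen (green triangles) and control (grey circles), ordered by the mean. Each point is 1 cell-group library minus 1 single-cell library and the grey bar joins the treatments. All points lie left of the dashed line at -2, 4-fold lower in cell groups. Bars are short for genes such as Cre09.g399250 (SD 0.10, from few cell-group counts) and long for genes such as Cre16.g659700 (SD 1.84). The added 0.5 CPM shortens the bars of genes near 0 in cell groups.

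The rule did not name the order of treatments within single cells, but it used the lowest of these values, which disfavours genes that are low in any 1 library. Evenness and order are therefore descriptions, not independent of how the genes were chosen. The ratio of the highest to the lowest single-cell CPM had a median of 1.84 over the 41 genes, with a range of 1.11 to 6.67, against a median of 1.69 over the 9966 genes with 5 CPM or more in every single-cell library. It was under 1.5 for 14 of the 41 genes (34.1%) and for 35.6% of the 9966, and 2 or more for 16 (39.0%) and for 34.7%. The highest single-cell library was rotifer for 12 genes (29.3%), low nitrogen for 13 (31.7%) and control for 16 (39.0%). Over the 9966 genes these shares were 22.7%, 34.3% and 43.0%.

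That order depended on the scaling. With trimmed mean of M-values (TMM) scaling in place of column sums, 18 of the 41 genes (43.9%) were highest under rotifers, 11 (26.8%) under low nitrogen and 12 (29.3%) in control, against 35.4%, 30.4% and 34.2% of the 9966 genes. TMM moved the median log2 ratio of rotifer over control in single cells by more than 0.1, to 0.01 over the 9966 genes, against -0.25 with column sums. For the 41 genes the same medians were 0.24 with TMM and -0.02 with column sums. In cell groups TMM moved the median of low nitrogen over control to -0.03 over the 9966 genes, against 0.19 with column sums, and that of the 41 genes to 0.12, against 0.25.

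Treatment effects were tested over both morphotypes with the quasi-likelihood test of edgeR, with morphotype as a covariate, on the 14136 genes that passed a filter on low counts. All 41 genes passed it, 17 of them only through the 3 single-cell libraries: with any single-cell library left out, 24 passed. At an adjusted p under 0.05, 0 of the 41 genes changed with rotifers and 0 with low nitrogen, beside 0 of all genes tested (0%) in both comparisons. The smallest adjusted p among the 41 was 0.663 for rotifers and 0.834 for low nitrogen. At an unadjusted p under 0.05, 6 of the 41 genes passed for rotifers, beside 1019 of all genes (7.21%), and 5 for low nitrogen, beside 816 of all genes (5.77%). These passes rest largely on the single-cell libraries, on whose values the genes were chosen. Apart from Cre05.g237450, Cre13.g588271 and Cre09.g396600 (422, 43 and 78 cell-group counts), the genes that passed had 2 to 15 such counts. No conclusion on the set is drawn from these numbers. Counted by limma, 0 genes passed in either comparison after adjustment, and 1137 and 833 before it. The Wald test of DESeq2 called 85 genes for rotifers (0.784%), of which 0 were among the 41, and 49 for low nitrogen (0.347%), of which 1 was. With 2 residual degrees of freedom, an effect that differed between the morphotypes entered the error.

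The median log2 fold change of the 41 genes in this fit was 0.24 for rotifers and 0.10 for low nitrogen, beside -0.02 and -0.01 over all genes tested. For rotifers, 25 of the 41 genes lay above 0 and 16 below it, and the same held for low nitrogen. This lean did not hold throughout over the 24 genes that passed the filter with a single-cell library left out. Without the single-cell control, rotifer or low-nitrogen library in turn, their rotifer medians were -0.16, -0.08 and 0.13. The low-nitrogen medians, in the same order, were -0.05, 0.09 and 0.06. The median of these 24 genes in the full fit was not computed, so the lost library and the smaller gene set cannot be told apart. Without the cell-group control, rotifer or low-nitrogen library, all 41 genes passed the filter. Their rotifer medians were then 0.26, 0.26 and 0.27, and their low-nitrogen medians 0.24, 0.12 and 0.04. No direction is therefore read for the set. No single gene of the set carried a call in the edgeR fit to all libraries. The values below therefore describe the libraries, and calls by other fits are named beside them.

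The gene with the lowest unadjusted p for low nitrogen was Cre09.g396600, whose values in each library are given above. Low nitrogen over control was -2.35 in cell groups and -2.37 in single cells on the log2 scale of CPM + 0.5. The fitted log2 fold change was -2.49 (edgeR quasi-likelihood, adjusted p = 0.834). The cell-group value under low nitrogen rests on 5 counts, where the added 0.5 CPM holds the ratio closer to 0. Without the single-cell low-nitrogen library the fitted value was -3.64 (adjusted p = 1), and without the cell-group low-nitrogen library it was -2.04 (adjusted p = 0.783). DESeq2 called it, with a log2 fold change of -2.55 (Wald test, adjusted p = 0.0106). So did the edgeR fit without the cell-group control library, with -2.64 (adjusted p = 0.0386), a fit with 1 residual degree of freedom in which the control level came from single cells alone. That fit called 559 of 13874 genes (4.03%) for low nitrogen and 945 (6.81%) for rotifers, where all other edgeR fits called 0.

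For rotifers, the lowest unadjusted p belonged to Cre16.g659667, with a fitted log2 fold change of -2.44 (edgeR quasi-likelihood, adjusted p = 0.663). Its log2 ratio of rotifer over control was -0.33 in cell groups, from 0 counts against 1 count, and -2.65 in single cells, so the estimate rests on the single-cell libraries. Cre06.g285950 had 0.367, 0.803 and 0.888 CPM in cell groups, against 7.65, 33.7 and 26.1 CPM in single cells, and was lowest under rotifers in both. Its cell-group values rest on 2, 6 and 7 counts, with the rotifer value under the floor of 3 counts, so their order is uncertain. Cre16.g668700 had 0, 0.401 and 0.254 CPM in cell groups, against 28.7, 27.2 and 5.96 CPM in single cells. It was the gene with the lowest single-cell minimum of the set, and rotifers and low nitrogen both stood over control in single cells, by 2.17 and 2.10 on the log2 scale. Without the cell-group control library, edgeR called 4 of the 41 genes for rotifers, beside 6.81% of all genes tested and with the control level from single cells alone: Cre02.g087150 with 1.74 (adjusted p = 0.0427), Cre05.g237450 with 2.28 (adjusted p = 0.0128), Cre16.g659667 with -2.47 (adjusted p = 0.0215) and Cre16.g668700 with 2.45 (adjusted p = 0.0404). The cell-group libraries held only 2 counts of Cre16.g659667 and 5 of Cre16.g668700, which passed the filter through single cells.

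Low nitrogen over control was also large for Cre07.g334150, 0.79 in cell groups and 1.54 in single cells, and for Cre12.g541400, -0.82 in cell groups and -1.74 in single cells. Cre12.g541400 had 0.367, 0 and 0.381 CPM in cell groups, against 22.6, 9.16 and 31.7 CPM in single cells. In both genes the ratio had the same sign in the morphotypes, with 10 and 5 counts in all behind the cell-group values. In single cells, 4 of the 41 genes (9.76%) were at least 2-fold higher and 9 (22.0%) at least 2-fold lower under rotifers than in control, beside 6.31% and 16.2% of the 9966 genes. Under low nitrogen 5 (12.2%) were higher and 6 (14.6%) lower, beside 5.49% and 10.1%. With TMM scaling the number lower under low nitrogen was 3 (7.32%), beside 8.94%. In cell groups, 3 (7.32%) were higher and 1 (2.44%) lower under rotifers, beside 1.55% and 2.20%, and 4 (9.76%) were higher and 5 (12.2%) lower under low nitrogen, beside 6.35% and 1.97%. The cell-group ratios rest on few counts for many of the 41 genes.

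**Figure D3:**
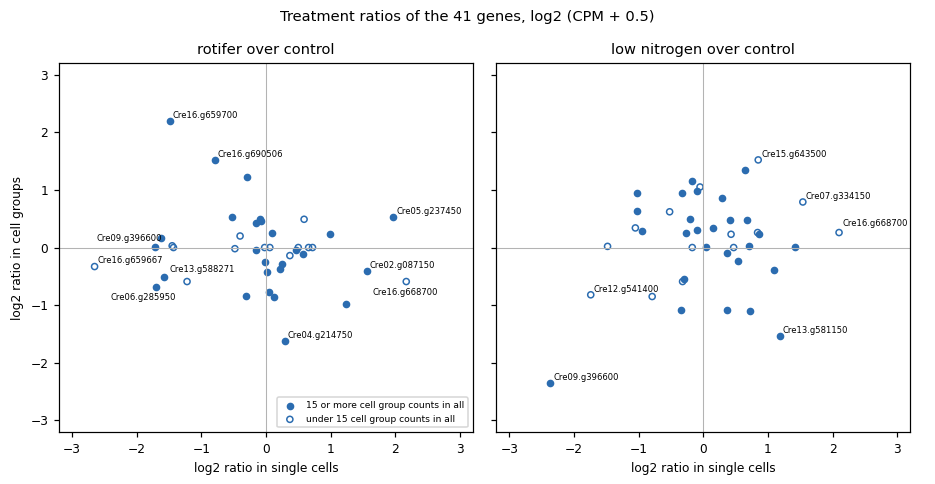
Log2 ratio (CPM + 0.5) of rotifer over control (left) and low nitrogen over control (right) for the 41 genes, with single cells on the x axis and cell groups on the y axis. Each point is 1 gene, from 1 library per condition, and open circles mark genes with under 15 counts over the cell-group libraries. Points lie in all 4 quadrants, Cre09.g396600 is low in both morphotypes under low nitrogen (-2.35 and -2.37), and Cre16.g659700 and Cre13.g581150 lie in quadrants of opposite sign.

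Position in the genome was not used by the rule. The 41 genes lay on all 17 chromosomes. Chromosome 16 held 8 of them (19.5%), beside 7.33% of the genes in the count table, chromosomes 6 and 10 held 4 each, and 7 genes were the only one on their chromosome. Gene spans had a median of 5120 bases, from 1606 (Cre16.g659667) to 13122 (Cre04.g214000), against 4868 for 9964 genes with 5 CPM or more in every single-cell library. By distance, 6 were within 10 kb of another of the set, 11 within 100 kb and 25 within 500 kb. The same distances were not computed for other genes, so whether the set lies closer together than such genes was not tested.

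On chromosome 10, Cre10.g448450 and Cre10.g448500 were direct neighbours within 11576 bases (3942700 to 3954275). Both were at or near 0 counts in cell groups and between 19.5 and 33.8 CPM in single cells. The next gene on one side, Cre10.g448400 (3941116 to 3942691), was also lower in cell groups, with 9.54, 8.70 and 5.08 CPM, against 75.7, 56.4 and 39.6 CPM in single cells. It missed the rule by little, with a ratio of 3.95. The gene on the other side, Cre10.g448550, was higher in cell groups, with 10.1, 10.4 and 7.49 CPM, against 4.46, 2.89 and 2.32 CPM in single cells.

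On chromosome 16, Cre16.g659667 and Cre16.g659700 were direct neighbours within 3676 bases (2349233 to 2352908). In single cells both were highest in control and lowest under rotifers, at levels per kilobase of 13.9 and 519 CPM per kb. In cell groups they parted: Cre16.g659700 kept 28.4 to 131 CPM, while Cre16.g659667 had 2 counts in all. Another stretch on the same chromosome, of 18652 bases (6347099 to 6365750), held Cre16.g674100 and Cre16.g674000 with a single gene between them. That gene, Cre16.g674050 (6355696 to 6360097), had 0 counts in all cell-group libraries and 28, 21 and 91 counts in single cells, 4.46, 2.53 and 10.0 CPM, and failed only the minimum of 5 CPM.

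**Figure D4:**
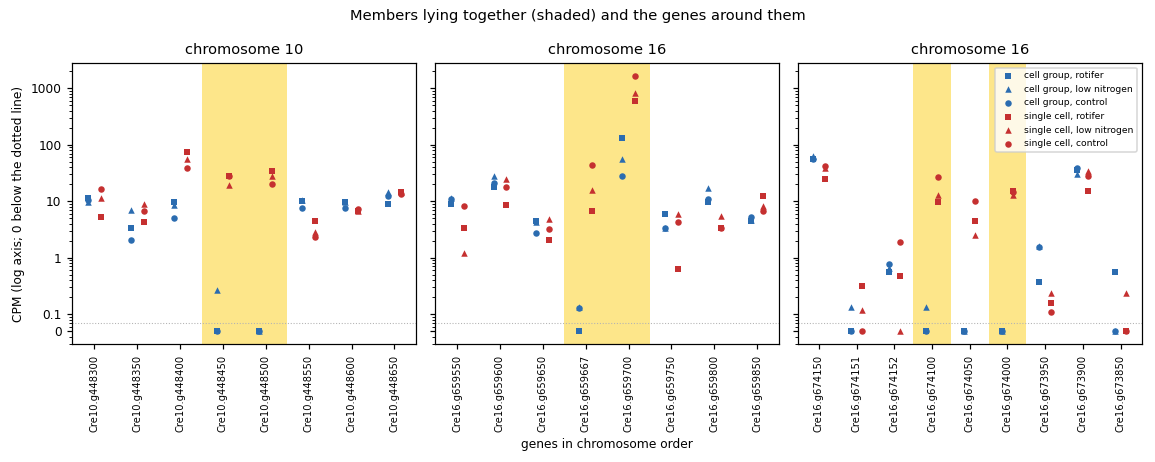
CPM (log axis, values of 0 below the dotted line) of the genes in chromosome order around the 3 places where genes of the set (shaded) lie next to each other or 1 gene apart, with cell groups in blue on the left of each gene and single cells in red on the right. Each point is 1 library. Among the unshaded genes, Cre10.g448400 beside the first stretch and Cre16.g674050 inside the last one were far lower in cell groups, at 5.08 to 9.54 CPM and at 0 counts, while the others lay nearer together or were higher in cell groups, as Cre10.g448550.

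The 2 regions with the most genes of the set were mixed. Cre16.g675630, Cre16.g674100, Cre16.g674000 and Cre16.g673350 lay within 310.1 kb of chromosome 16, with 42 other genes, of which every single-cell library was above every cell-group library for 7 (16.7%) and the reverse for 3 (7.14%), beside 12.7% and 15.1% of all genes with at least 15 counts. Cre06.g285950, Cre06.g287450, Cre06.g287850 and Cre06.g289650 lay within 437.4 kb of chromosome 6, with 68 other genes, for which these numbers were 4 (5.88%) and 17 (25%). Most genes in either region had overlapping values in the morphotypes.

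Directly beside the 41 genes stood 69 other genes with at least 15 counts. Every single-cell library was above every cell-group library for 15 of them (21.7%), beside 12.7% of 15486 such genes in the whole table. Every cell-group library was above every single-cell library for 5 (7.25%), beside 15.1%. The median log2 difference of cell groups minus single cells was -0.08 over the 69 neighbours and 0.02 over all genes. Among the neighbours, 10 (14.5%) had no overlap between the morphotypes and a mean difference of -1.5 or lower, beside 2.63% of all genes. That limit was set after the values were seen. Both the 15 and the 10 include Cre10.g422850, whose span overlaps that of Cre10.g422876 in part.

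The strongest of these neighbours by mean difference were Cre16.g673300 (-3.54), beside Cre16.g673350, and Cre16.g674050 (-3.44). Cre16.g673300 had 1, 0 and 1 counts in cell groups, against 37, 12 and 241 in single cells. Cre17.g723750 (-2.90), beside Cre17.g723800, had 19.6, 94.8 and 27.5 CPM in cell groups, against 263, 262 and 325 CPM in single cells. Like Cre17.g723800 it was highest under low nitrogen in cell groups and even in single cells. Cre10.g422900 (-2.78) and Cre10.g422850 (-1.69) flanked Cre10.g422876, and Cre10.g422900 had 16.1, 29.2 and 28.5 CPM in cell groups, against 103, 201 and 223 CPM in single cells. Cre09.g396650 (-1.83), beside Cre09.g396600, had 25.7, 11 and 28.9 CPM in cell groups, against 71.9, 32.9 and 164 CPM in single cells. Its order of treatments was that of Cre09.g396600 in single cells, lowest under low nitrogen and highest in control. The remaining ones were Cre06.g287400 (-2.75), Cre10.g448400 (-2.80), Cre02.g087100 (-2.34) and Cre14.g630847 (-1.88).

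Wider windows did not hold a higher share of genes with every single-cell library above every cell-group library. The limit of -1.5 on the mean difference was not applied in these windows. Within 25 kb of the 41 genes, 321 other genes had at least 15 counts, and every single-cell library was above every cell-group library for 11.2% of them and the reverse for 14.0%. Outside that window the shares were 12.5% and 15.2%. Within 100 kb they were 10.8% and 16.7%. Without the direct neighbours, 252 genes within 25 kb remained, with shares of 8.33% and 15.9%.

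Beside the genes described singly, the set held 10 others: Cre03.g169550, Cre04.g214000, Cre11.g467644, Cre12.g540850, Cre12.g544450, Cre13.g590450, Cre15.g643500, Cre16.g673350, Cre16.g675630 and Cre16.g690506. They ran from 0 to 6.05 CPM in the cell-group libraries and from 6.06 to 41.7 CPM in the single-cell libraries, with single-cell means of 8.52 to 34.6 CPM. Most of them were thus at the lower end of the set in single cells. Near the 4-fold limit, the genes just inside were Cre01.g024050 with a ratio of 4.07 (lowest single-cell value 12.4 CPM, highest cell-group value 2.54 CPM), Cre04.g214000 with 4.27 and Cre02.g142601 with 4.30. Those just outside were Cre06.g258600 with 3.97 (9.28 and 1.83 CPM), Cre02.g107200 with 3.97 (82.2 and 20.2 CPM) and Cre10.g448400 with 3.95. The genes closest to the minimum of 5 CPM were Cre16.g668700 with 5.96 CPM, Cre04.g214000 with 6.06 CPM and Cre12.g544450 with 6.18 CPM. The limit thus runs through a continuous range of values, and genes on either side of it differed little. Cre01.g024050 had 1.28, 2.54 and 1.90 CPM in cell groups, against 12.6, 13.7 and 12.4 CPM in single cells, the most even single-cell values of the set. Cre02.g142601, with 4.4, 5.48 and 5.46 CPM in cell groups, against 30.8, 26.7 and 25.7 CPM in single cells, had the smallest mean difference, -2.33 ± 0.30.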

How the data were processed

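RNA-seq was run on 6 libraries. The authors used FastQC for read quality, HISAT2 for mapping to the Chlamydomonas genome (version 5.0, annotation 5.5) and HTSeq for counting, and the deposited counts are whole numbers per gene without normalization. Tool versions and the strand setting are not given in the sources used here. The deposited normalized values and the table of the authors' own fold changes and p-values were not used, nor were 5 columns of averages beside the counts. Of 17741 genes, 871 had no count.

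Counts were scaled by column sums to CPM, and log2 values were taken of CPM + 0.5, which understates differences of low genes. Treatments were compared with edgeR 4.0.16 in R 4.3.3 (quasi-likelihood test, TMM scaling, morphotype as covariate, Benjamini-Hochberg adjustment over all genes tested, threshold 0.05). Genes entered with 10 counts in a library of median size (1.3 CPM) in 3 or more libraries and with a total of at least 15 counts. limma 3.58.1 and DESeq2 1.42.0 were alternatives, as were other scalings, filters, limits and leaving out each library. Where no replicate library exists, p-values measure the spread between treatments and morphotypes left by the model.

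Positions came from a RefSeq gene table of assembly v5.5, which matched 17738 genes by locus tag and pairs none of the 41 genes with a name. Annotation classes, marker lists and sequences were therefore not used here, and near-identical gene copies were not examined. Genes named with values were the 20 highest by mean single-cell CPM, those at 0 in all cell-group libraries, the extremes of the treatment ratios in single cells and those at the limit, unless stated otherwise. The rule, the lists and the genes were chosen with earlier results of these data known. Sources differ on whether the chemostats numbered 18 or 9, which changes no library.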

Additional observations from a re-analysis of the deposited data

Results flagged for a closer look

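Treatment ratios of opposite sign and at least 2-fold in both morphotypes were found for 2 of the 41 genes. Each ratio came from 1 library per condition, and the difference between the morphotypes was not tested. The same count was not made over other genes, so whether 2 of 41 exceeds their share is not known. Low nitrogen over control was -1.54 in cell groups and 1.18 in single cells for Cre13.g581150, on the log2 scale of CPM + 0.5. Rotifer over control was 2.19 in cell groups and -1.49 in single cells for Cre16.g659700. The cell-group values of Cre13.g581150 rest on 64 counts in all and those of Cre16.g659700 on 1352. For Cre13.g581150 the cell-group ratio compares only 9 counts under low nitrogen with 35 in control.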

How the results depend on the processing

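The number of genes that met the rule depended on the fold asked for, with 64 genes at 3-fold and 12 at 8-fold, against 41 at 4-fold. It lay between 32 and 46 under the other scalings, offsets and minimums, and the TMM and DESeq2 scalings each shared 40 genes with the 41. Leaving out a library gave 52 to 69 genes. Leaving out both libraries of a treatment, a choice made after seeing the data, gave 87 without rotifer, 74 without low nitrogen and 83 without control, since fewer libraries make the rule easier to meet. For rotifers against control DESeq2 called 85 genes, and leaving out a library gave 0 to 945. For low nitrogen against control DESeq2 called 49, and leaving out a library gave 0 to 559. Both upper values came from the fit without the cell-group control library, and the cause was not tested. Genes of the set with a direct neighbour in it numbered 4, against 2 at 8-fold and 7 at 3-fold. The median log2 difference, -3.76, became -3.59 with a pseudocount of 1 CPM, chosen after seeing the data, and -3.78 to -3.80 under the other scalings or without rotifer. The treatment model set the libraries of each morphotype side by side, and without that term 0 genes passed either comparison after adjustment, with 448 and 318 at an unadjusted p under 0.05, against 1019 and 816 with it. No paired analysis by replicate number was possible because the groups share a single one. Depth limited the 14 genes with under 15 counts over the cell-group libraries, whose folds are known only within wide counting intervals.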
